A study of Mus musculus with 8 samples.

Results

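The hyaluronan-aggregate genes are those that build, hold together and take apart the large complexes of aggrecan and hyaluronan in cartilage. They comprised 10 genes: the proteoglycan genes Acan and Vcan, the link protein genes Hapln1 and Hapln3, the hyaluronan synthase genes Has1, Has2 and Has3, the receptor gene Cd44, the hyaluronan depolymerisation gene Cemip and the hyaluronan-modifying gene Tnfaip6. They were chosen by function, with earlier results of these data known, and matched by gene symbol. All 10 were measured, each by 1 probe set, among 22180 genes on the array. RNA came from primary articular chondrocytes, the cells of joint cartilage, isolated from the knee joint surfaces of wild-type ICR mice aged 5 days and grown as a monolayer. The control cultures (4 arrays) had been infected with a null adenovirus, Ad-null, and the others (4 arrays) with an adenovirus expressing the zinc transporter ZIP8, Ad-Zip8. Total RNA was taken 24 h after infection. Both groups thus carried an adenovirus, and uninfected cells were not analysed here. Biological replicates are stated in the labels, but not the animals or pools behind each culture, and p-values here reflect no more than the spread among these 8 arrays.

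In cartilage, aggrecan carries many chondroitin sulfate chains, and many aggrecan molecules bind along each hyaluronan strand. Link protein, the product of Hapln1, binds both partners and locks the complex, which draws in water and lets the tissue bear load. Hyaluronan is made at the plasma membrane by the synthases. It is held at the chondrocyte surface by CD44, which also takes it up, and is broken down outside and inside the cell.

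Slc39a8, which encodes ZIP8, lay between 6.12 and 6.27 on the log2 scale in the Ad-null arrays and between 10.90 and 11.24 in the Ad-Zip8 arrays, so every array matched its label. The deposited values ran from 0.85 to 13.8, with array medians of 5.04 to 5.11. Differences are compressed at low values, among them those near the medians, and close to the top, by an amount not measured here. Over 13 chondrocyte markers, the mean log2 level per array was 11.75 to 11.87 with Ad-null and 11.03 to 11.34 with Ad-Zip8. Ad-Zip8 replicate 1 had the lowest of these means. In bulk RNA, fewer cells of a type and less RNA per cell cannot be told apart.

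The 10 genes moved in both directions. Cd44 and Tnfaip6 rose, Acan and Hapln1 fell, and the other 6 did not pass the test (limma's moderated test, adjusted p under 0.05 over the 22180 genes). Those 4 calls among 10 genes compare with 10.6% of all genes called in either direction, 5.48% higher and 5.12% lower. The groups did not overlap for 5 of the 10 genes (Acan, Hapln1, Has2, Cd44 and Tnfaip6), against 17.6% of all genes. The median log2 change of the 10 genes was -0.16, against -0.02 over all genes.

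**Figure D1:**
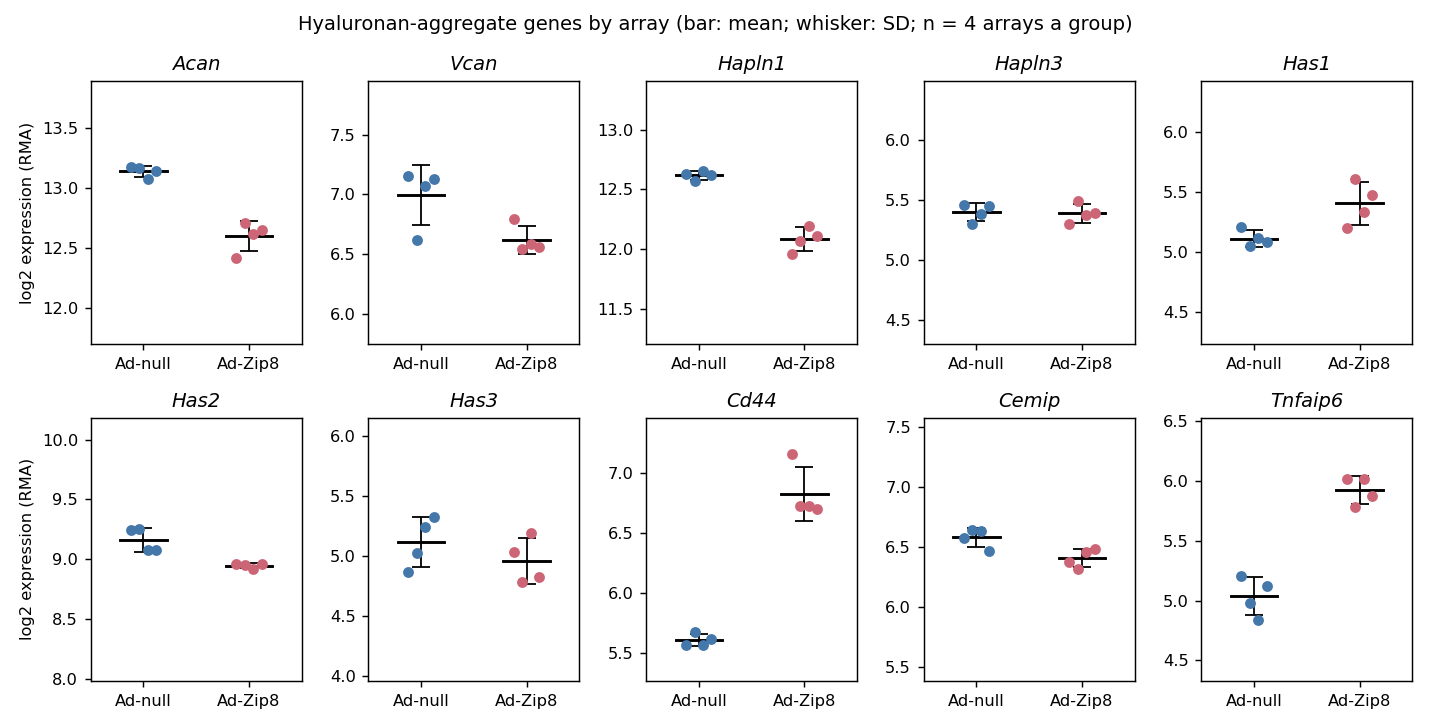
The log2 expression value of each gene in each array is shown for Ad-null (blue) and Ad-Zip8 (red), with the mean as a bar and the SD as a whisker (n = 4 arrays a group). Every panel spans the same height in log2 units, so the distances can be compared between panels but the heights cannot. The groups are apart for Acan, Hapln1, Has2, Cd44 and Tnfaip6.

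Acan encodes aggrecan, the proteoglycan that gives cartilage its resistance to compression. Its log2 values were 13.17, 13.17, 13.07 and 13.15 in Ad-null replicates 1 to 4 and 12.42, 12.71, 12.61 and 12.65 in Ad-Zip8 replicates 1 to 4. All 4 Ad-Zip8 arrays lay below all 4 Ad-null arrays, with Ad-Zip8 replicate 1 the lowest. The means were 13.14 ± 0.05 and 12.60 ± 0.13 (SD, n = 4 each), so Acan fell 1.46-fold (log2 change -0.54, SE 0.08, limma adjusted p = 0.00181). The Ad-null values lie close to the top of the scale, where differences are compressed.

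Hapln1 encodes link protein, which stabilises the binding of aggrecan to hyaluronan. In the same order of replicates, its log2 values were 12.63, 12.57, 12.65 and 12.62 with Ad-null and 11.96, 12.07, 12.19 and 12.11 with Ad-Zip8. Again the groups did not overlap and Ad-Zip8 replicate 1 was the lowest array. Hapln1 fell 1.45-fold, from 12.62 ± 0.04 to 12.08 ± 0.10 (SD, n = 4 each; log2 change -0.54, SE 0.07, limma adjusted p = 0.00113). Without Ad-Zip8 replicate 1 the log2 change was -0.48 for Acan (adjusted p = 0.00411) and -0.49 for Hapln1 (adjusted p = 0.00382).

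The falls of Acan and Hapln1 moved with the chondrocyte markers as a whole. Of those 13 markers, 11 fell, among them Matn1 (2.20-fold), beside 5.12% of all genes lower. The median log2 change of the list was -0.61, below the changes of Acan and Hapln1. Col2a1 and Sox9, which define chondrocytes, had log2 changes of -0.22 and -0.19 and did not pass (limma adjusted p = 0.0790 and 0.137). For both, every Ad-Zip8 array lay below every Ad-null array. The groups did not overlap for any of the 13 markers, against 17.6% of all genes without overlap. Col2a1 averaged 13.46 with Ad-null, close to the top of the scale, where differences are compressed. The part of a general shift of chondrocyte RNA in the lower Acan and Hapln1 values was not tested.

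Because the measured log2 changes of Acan and Hapln1 were alike, the DNA ahead of their start sites is shown. It is taken from RefSeq's GRCm38.p6 promoter table, as the 250 bases before the start site, 5′ to 3′ on the gene's strand. Capitals mark matches to TGCNCNC on either strand, a loose form of the core letters of the metal response element. That element is the site at which the zinc-sensing factor MTF1 binds DNA. N stands for any base, so a match need not be such a site. The Acan window is chr7:79052976-79053225 (plus strand) and the Hapln1 window chr13:89540386-89540635 (plus strand).
Acan: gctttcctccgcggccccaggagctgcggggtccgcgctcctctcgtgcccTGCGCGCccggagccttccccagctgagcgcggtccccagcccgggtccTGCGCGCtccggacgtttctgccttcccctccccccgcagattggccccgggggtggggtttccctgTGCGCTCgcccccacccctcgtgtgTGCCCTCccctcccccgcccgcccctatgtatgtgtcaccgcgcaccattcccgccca
Hapln1: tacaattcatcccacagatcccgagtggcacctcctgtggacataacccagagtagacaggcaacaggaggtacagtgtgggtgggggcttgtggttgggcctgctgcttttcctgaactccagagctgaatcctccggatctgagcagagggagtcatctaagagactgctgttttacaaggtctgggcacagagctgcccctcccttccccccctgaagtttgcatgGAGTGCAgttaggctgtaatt
The Acan window held 4 matches, starting at positions -199, -150, -83 and -58 from the start site, in a window that is 74.4% G and C. The Hapln1 window held 1, on the opposite strand at -21 to -15, in a window that is 54.4% G and C. These short letters are common: 44.4% of 32851 windows of the same length held at least 1 match, and 3 of the 8 genes found in the table did. The letters searched for NF-kB (GGANTTTCC, in 1.07% of windows), C/EBP (TTGCNNAA, in 9.56%) and the Sox letters ACAAAG (in 16.5%) were in none of the 8 windows, and the Sox letters AACAAT (in 9.42%) were in that of Hapln3. All searches covered both strands, and a match is a match of letters only. Only the letters given were searched, so other forms of these sites may be present in the windows. The table held no window for Has2 or Has3.

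Vcan encodes versican, a relative of aggrecan that also binds hyaluronan and is typical of looser connective tissue and of early cartilage. Across replicates 1 to 4 its log2 values read 7.15, 6.62, 7.07 and 7.13 with Ad-null and 6.79, 6.54, 6.58 and 6.56 with Ad-Zip8. Ad-null replicate 2 lay within the Ad-Zip8 range, well below the other Ad-null arrays, so the groups overlapped. The log2 change of -0.37 (SE 0.12, 95% interval -0.65 to -0.09) did not pass (limma adjusted p = 0.0968). Without Ad-null replicate 2 it was -0.49 and passed (adjusted p = 0.00907), and leaving out any other array gave an adjusted p between 0.0966 and 0.218.

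Hapln3 encodes a link protein that is found in many tissues. Its log2 values ran from 5.30 to 5.46 with Ad-null and from 5.30 to 5.49 with Ad-Zip8, near the array medians. The log2 change was -0.01 (SE 0.07, 95% interval -0.17 to 0.15, limma adjusted p = 0.958). Differences are compressed at this level, so the interval cannot be set against the change of Hapln1. On the mouse genome the link protein genes sit beside proteoglycan genes: in the reference gene table Hapln3 is the next coding gene to Acan on chromosome 7, and Hapln1 is the next coding gene to Vcan on chromosome 13.

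The hyaluronan synthase genes did not pass the test. Has2 encodes the synthase that makes most of the hyaluronan in cartilage. Its log2 values were 9.25, 9.25, 9.08 and 9.08 with Ad-null and 8.96, 8.96, 8.92 and 8.96 with Ad-Zip8. Every Ad-Zip8 array lay below every Ad-null array, and the Ad-Zip8 arrays lay closer together (SD 0.02) than the Ad-null arrays (SD 0.10). The log2 change was -0.22 (SE 0.07, 95% interval -0.38 to -0.06, limma adjusted p = 0.0944). Has2 passed when the fit let the variance depend on expression level (adjusted p = 0.0264) and with the dim genes removed (adjusted p = 0.0273), whereas it did not pass with any array left out.

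Has1 encodes a further synthase, which inflammatory cytokines are known to induce in synovial cells. It was measured at log2 values of 5.21, 5.05, 5.11 and 5.08 with Ad-null and 5.20, 5.61, 5.33 and 5.48 with Ad-Zip8. Ad-Zip8 replicate 1 lay within the Ad-null range and the other 3 lay above it. The log2 change was 0.29 (SE 0.10, 95% interval 0.08 to 0.51, limma adjusted p = 0.0895). Without Ad-Zip8 replicate 1 it was 0.36 and passed (adjusted p = 0.0444), and leaving out any other array gave an adjusted p between 0.109 and 0.199.

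Has3 encodes the synthase known for shorter hyaluronan chains. Its log2 values ran from 4.86 to 5.33 with Ad-null and from 4.78 to 5.19 with Ad-Zip8, and most of both ranges was shared. The log2 change was -0.16 (SE 0.13, 95% interval -0.44 to 0.13, limma adjusted p = 0.538). The spread between arrays of Has3 (SD 0.21 with Ad-null and 0.19 with Ad-Zip8) was larger than that of Has2, and its values lay near or below the array medians.

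Cd44 encodes the main hyaluronan receptor of chondrocytes, which anchors the matrix coat to the cell and takes up hyaluronan fragments. It had the largest measured log2 change of the 10 genes, a ranking of values that are in part compressed. Its log2 values were 5.57, 5.68, 5.57 and 5.62 with Ad-null and 7.16, 6.72, 6.72 and 6.70 with Ad-Zip8. The groups were far apart, with Ad-Zip8 replicate 1 above the other Ad-Zip8 arrays. Cd44 rose 2.33-fold, from 5.61 ± 0.05 to 6.83 ± 0.22 (SD, n = 4 each; log2 change 1.22, SE 0.11, limma adjusted p = 9.21e-05). Without Ad-Zip8 replicate 1 the log2 change was 1.11 (adjusted p = 5.49e-05). The single probe set does not separate the splice forms of CD44.

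Tnfaip6 encodes TSG-6, a secreted protein that inflammatory cytokines induce and that transfers heavy chains of inter-alpha-trypsin inhibitor onto hyaluronan. Its log2 values were 5.21, 4.98, 4.84 and 5.12 with Ad-null and 6.02, 5.78, 6.02 and 5.87 with Ad-Zip8. The lowest Ad-Zip8 array stood above the highest Ad-null array. Tnfaip6 rose 1.85-fold, from 5.04 ± 0.16 to 5.92 ± 0.12 (SD, n = 4 each; log2 change 0.88, SE 0.10, limma adjusted p = 3.55e-04). Its Ad-null mean lay at the array medians, where differences are compressed.

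The windows ahead of Cd44 and Tnfaip6, the genes that rose, are shown as those of Acan and Hapln1 were, with the same letters in capitals. The Cd44 window is chr2:102901666-102901915 (minus strand) and the Tnfaip6 window chr2:52037863-52038112 (plus strand).
Cd44: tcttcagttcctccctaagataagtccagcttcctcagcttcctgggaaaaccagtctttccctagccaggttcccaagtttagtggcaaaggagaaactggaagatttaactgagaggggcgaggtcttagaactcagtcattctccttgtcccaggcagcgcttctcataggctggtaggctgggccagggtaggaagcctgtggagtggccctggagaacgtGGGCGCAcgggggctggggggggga
Tnfaip6: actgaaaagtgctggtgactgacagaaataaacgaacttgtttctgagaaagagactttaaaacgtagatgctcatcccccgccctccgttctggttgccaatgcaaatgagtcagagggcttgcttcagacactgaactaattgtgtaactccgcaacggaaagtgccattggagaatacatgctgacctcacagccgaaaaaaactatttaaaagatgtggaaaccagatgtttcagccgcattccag
Cd44 held 1 match to the metal response element letters, on the opposite strand at -25 to -19. Tnfaip6 held none in these bases, which are 44.4% G and C against 56.4% for Cd44. Matches were thus found ahead of Acan and Hapln1, which fell, and of Cd44, which rose, and in none of the other 5 windows.

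Cemip encodes a protein that breaks hyaluronan down outside the cell. It had log2 values of 6.58, 6.64, 6.63 and 6.47 with Ad-null and 6.37, 6.32, 6.46 and 6.48 with Ad-Zip8. Ad-Zip8 replicate 4 reached just above the lowest Ad-null array. The log2 change was -0.17 (SE 0.07, 95% interval -0.34 to -0.01, limma adjusted p = 0.197), and Cemip did not pass with any array left out. Each gene taken alone, an exact permutation test over the 8 arrays gave its smallest possible two-sided p of 0.0286 for Acan, Hapln1, Has2, Cd44 and Tnfaip6, 0.0571 for Vcan, Has1 and Cemip, 0.286 for Has3 and 0.914 for Hapln3.

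**Figure D2:**
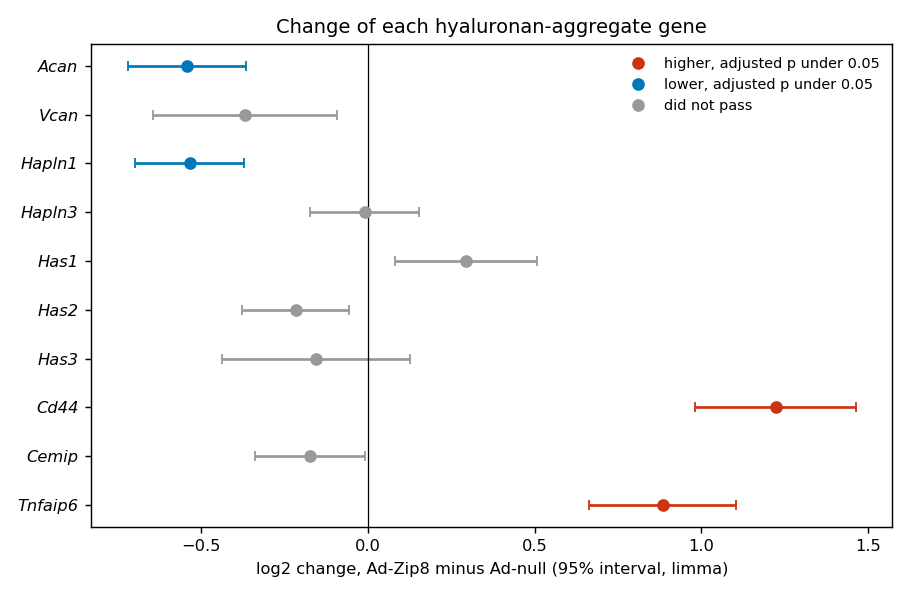
The log2 change of each gene, Ad-Zip8 minus Ad-null, is shown as a point with its 95% interval from limma, not adjusted for the number of genes. Cd44 (1.22) and Tnfaip6 (0.88) lie to the right, Acan and Hapln1 (both -0.54) to the left, and the interval of Hapln3 is centred near 0.

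Whether genes changed unequally within the same arrays was asked for 6 pairs chosen by role, from the log2 ratio of both genes in each array. The level of such a ratio mixes probe properties and has no meaning here, but its difference between groups does. The ratio of Acan to Hapln1 differed between groups by -0.01 (exact permutation p = 0.914; SD 0.08 with Ad-null and 0.10 with Ad-Zip8), and that of Acan to Vcan by -0.17 (exact permutation p = 0.571). The Hapln1 to Hapln3 ratio differed by -0.53, lower with Ad-Zip8, and did not overlap between groups. The Has1 to Has2 ratio was higher with Ad-Zip8 in all 4 arrays, by 0.51, whereas the Has2 to Has3 ratio differed by -0.06 with broad overlap (exact permutation p = 0.714).

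The ratio of Cemip, which cuts hyaluronan, to Tnfaip6, which modifies it, differed by -1.06 and did not overlap. The Hapln1 to Hapln3, Has1 to Has2 and Cemip to Tnfaip6 ratios each reached the smallest p that 4 arrays against 4 allow (two-sided exact permutation p = 0.0286, or 0.0571 adjusted over the 6 pairs), so no pair passed after adjustment. Hapln3, Has1 and Tnfaip6 lie near the array medians, where differences are compressed. Acan lies close to the top of the scale, where they are compressed too. Its ratio to Hapln1 therefore cannot show that the RNA of both genes fell equally. For the chromosomal neighbours, 2 pairs added after the values were seen, the Acan to Hapln3 ratio differed by -0.53 without overlap (exact permutation p = 0.0286), and the Hapln1 to Vcan ratio by -0.17 with overlap (exact permutation p = 0.486).

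**Figure D3:**
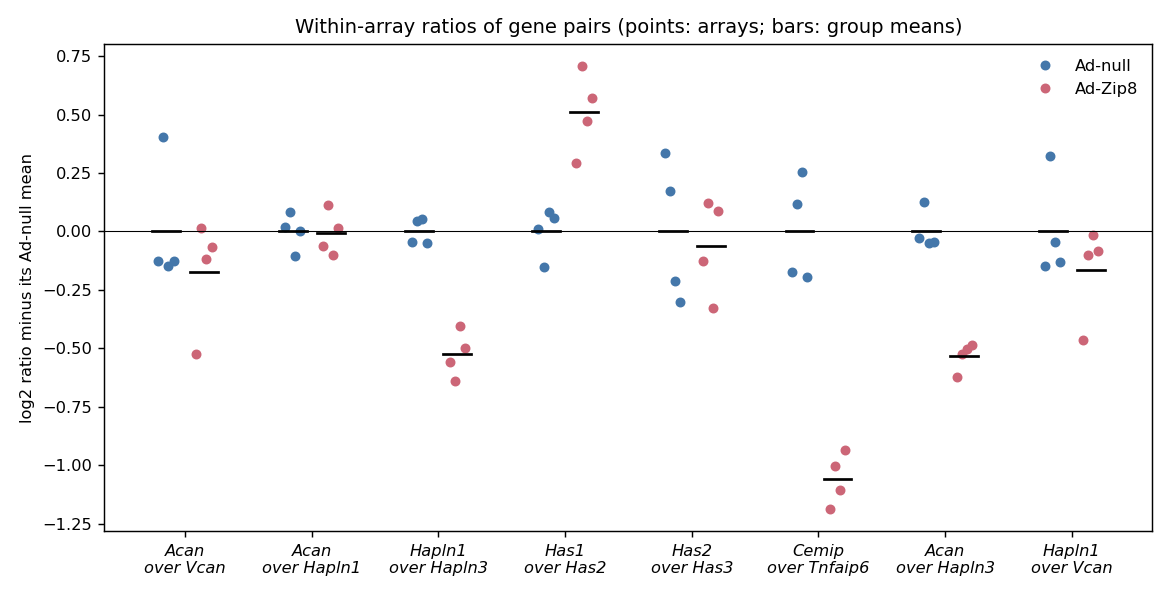
Within-array log2 ratios of 8 gene pairs are shown for each array, after subtracting the Ad-null mean of the pair, with Ad-null in blue, Ad-Zip8 in red and group means as bars. The Acan over Hapln1 ratio stays near 0 in both groups, and the Cemip over Tnfaip6 ratio lies about 1 log2 unit lower in the Ad-Zip8 arrays (-1.06).

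Genes that followed Cd44, Tnfaip6 and Hapln1 most closely were sought by the root mean square difference of log2 values over the 8 arrays, after centring each gene on its mean. For Cd44 they were Alcam, an adhesion molecule gene (0.08), Fam102b (0.09) and the lipid efflux transporter gene Abca1 (0.09). For Tnfaip6 they were the mitotic checkpoint gene Mad2l1 (0.07), the lipopolysaccharide receptor gene Tlr4 (0.09) and Atp10d (0.09). For Hapln1 they were Ogn, a small leucine-rich proteoglycan gene (0.03), Ltv1 (0.04) and Csgalnact1, a chondroitin sulfate chain enzyme gene (0.04). The search covered 18678 genes, and the measure describes these arrays only. Cd44, Tnfaip6 and Hapln1 were chosen by the smallest adjusted p for the difference between the groups. Genes close to them therefore had to share that difference.

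A further 45 genes of hyaluronan and aggrecan biology were analysed. In all, 6 rose, 2 fell and 37 did not pass, and their median log2 change was -0.03. That is 8 calls of 45 genes, again against 10.6% of all genes.

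Of 16 genes of hyaluronan-binding proteins, the largest of the lists, 4 rose, none fell and 12 did not pass, beside 5.48% of all genes higher and 5.12% lower. The median log2 change of the list was -0.04. Ptx3 encodes pentraxin 3, a partner of TSG-6 and inter-alpha-trypsin inhibitor in hyaluronan crosslinking. Log2 values of Ptx3 were 8.31, 8.39, 8.25 and 7.85 with Ad-null and 9.58, 9.44, 9.51 and 9.45 with Ad-Zip8, a 2.46-fold rise (log2 change 1.30, SE 0.11, limma adjusted p = 9.07e-05). Itih2, which encodes an inter-alpha-trypsin inhibitor heavy chain of the kind that TSG-6 moves onto hyaluronan, rose 1.56-fold (log2 change 0.64, SE 0.12, limma adjusted p = 0.00671). Its values ran from 6.35 to 6.66 with Ad-null and from 6.93 to 7.40 with Ad-Zip8. The other inter-alpha-trypsin inhibitor genes of the list overlapped between groups and did not pass. Their log2 changes were -0.05 for Itih1, 0.04 for Itih3, 0.23 for Itih5 and 0.08 for Ambp, which encodes the light chain. Itih1, Itih3 and Ambp lay near or below the array medians, where differences are compressed.

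The receptor gene Layn, which encodes layilin, rose 2.09-fold (log2 change 1.06, SE 0.15, limma adjusted p = 0.00123), from a range of 6.09 to 6.42 to one of 7.03 to 7.72. Hmmr, whose product binds hyaluronan and also acts on the mitotic spindle, rose 2.30-fold (log2 change 1.20, SE 0.11, limma adjusted p = 1.26e-04). Of the uncalled genes with the smallest p, Ncan (-0.17), Stab1 (-0.12), Habp2 (-0.12) and Bcan (-0.11) had small log2 changes. Lyve1, the hyaluronan receptor of lymphatic vessels, had a log2 change of -0.03, and the brain link protein genes Hapln2 and Hapln4 had changes of -0.06 and -0.05. Ncan, Stab1, Habp2, Bcan, Lyve1, Hapln2 and Hapln4 all lay near or below the array medians, where differences are compressed.

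Precursor supply genes, which make the nucleotide sugars that the synthases join, showed 2 of 7 lower, beside 5.12% of all genes, and none higher, with a median log2 change of -0.14. These were the glutamine-fructose-6-phosphate transaminase genes Gfpt1 and Gfpt2, whose products start the hexosamine pathway. Gfpt1 fell 1.33-fold (log2 change -0.41, SE 0.08, limma adjusted p = 0.00666), with 9.97 to 10.18 in the Ad-null arrays and 9.59 to 9.73 in the Ad-Zip8 arrays. Gfpt2 fell 1.37-fold (log2 change -0.46, SE 0.08, limma adjusted p = 0.00427), with 10.62 to 10.79 and 10.09 to 10.32. The next steps of the same pathway, Gnpnat1 (-0.26), Pgm3 (-0.14) and Uap1 (-0.09), had negative log2 changes that did not pass, and Ugdh, which makes the glucuronic acid donor, had 0.08.

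Hyaluronan breakdown genes gave no call among 9 measured members, against 10.6% of all genes called. Hexa, a subunit gene of lysosomal hexosaminidase, came nearest at a log2 change of 0.30 (SE 0.10, limma adjusted p = 0.0845; adjusted p = 0.0335 with a replicate block). Gusb had 0.18, Hyal3 -0.30 and Hyal2 -0.13. Cemip2, whose product cuts hyaluronan at the cell surface, had 0.04 (SE 0.07).

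Among 6 Adamts genes of aggrecan-cleaving enzymes, the only family in this list, Adamts5 alone passed, beside 5.48% of all genes higher. It rose 2.87-fold (limma adjusted p = 7.44e-04). Its log2 values were 5.41 to 6.13 in the Ad-null arrays and 7.12 to 7.84 in the Ad-Zip8 arrays. Adamts4 had a log2 change of 0.08 (SE 0.12) and Adamts1 one of -0.08 (SE 0.07). Adamts4 lay at 5.48 to 5.56 with Ad-null and 5.23 to 5.87 with Ad-Zip8, near the array medians, where differences are compressed. Of 7 genes of CD44 anchoring and shedding, 1 passed, beside 10.6% of all genes called in either direction. This was Adam17, which encodes a sheddase that cuts CD44 from the cell surface. Adam17 rose 1.76-fold (log2 change 0.81, SE 0.09, limma adjusted p = 2.37e-04). Its values were 8.01 to 8.23 and 8.86 to 9.13. Adam10, another CD44 sheddase gene, had a log2 change of 0.29 that just missed the threshold (limma adjusted p = 0.0505), and it passed with the variance trend (adjusted p = 0.0108), with repeated quantile normalization (adjusted p = 0.0313) and with the dim genes removed (adjusted p = 0.0143). Of the genes of cytoskeletal linkers that bind the tail of CD44, Ezr had -0.36 (limma adjusted p = 0.0777, or 0.0183 with a replicate block). Rdx had -0.17 and Msn 0.21, and Nf2 of the same list had -0.23. None of these passed in the fit without a block. The groups did not overlap for 4 of the 7 genes (Adam17, Adam10, Ezr and Rdx), against 17.6% of all genes.

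**Figure D4:**
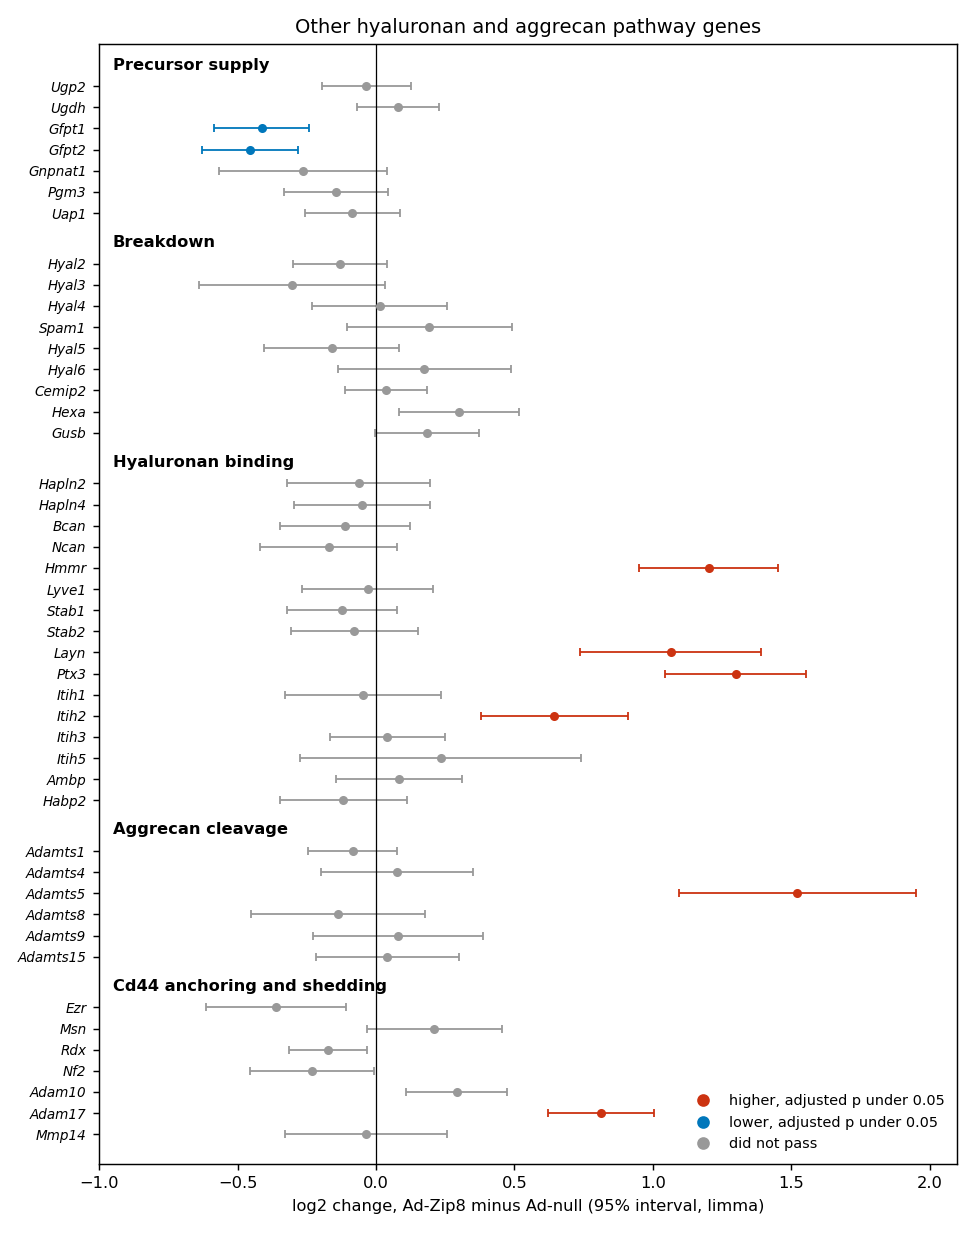
Log2 changes, Ad-Zip8 minus Ad-null, of 45 further genes are shown by list with 95% intervals from limma. The 6 genes that rose (Adamts5, Ptx3, Hmmr, Layn, Adam17 and Itih2) stand to the right of a column of genes around 0, and Gfpt1 and Gfpt2 stand to the left.

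CD44, TSG-6 and pentraxin 3 are also made by macrophages and synovial fibroblasts, so markers of these cells are given beside them. Of 12 macrophage markers 2 rose (Cd14 and Cd68), 1 fell (Laptm5) and 9 did not pass (5.48% of all genes rose and 5.12% fell), and the mean log2 level of the list per array was 4.98 to 5.05 with Ad-null and 5.06 to 5.19 with Ad-Zip8. The defining leukocyte gene Ptprc lay at 3.23 to 3.46 and 2.83 to 3.37, below the array medians in every array, as did Adgre1 at 3.80 to 4.42 and 4.00 to 4.37. Of 10 fibroblast and synovium markers 2 rose (Prg4 and Pdgfra) and 2 fell (Pdgfrb and Col1a2), with per-array means of 7.56 to 8.01 and 7.80 to 8.19. None of 7 endothelial markers passed. The part of other cell types in the rises of Cd44 and Tnfaip6 was not tested.

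Ad-Zip8 replicate 1 recurred at the far end of several of these genes. It had the lowest Acan and Hapln1 values of all arrays, and the highest Cd44, Adamts5, Layn, Itih2, Ptx3, Hmmr and Adam17 values. Its chondrocyte marker mean was the lowest (11.03), and its macrophage (5.19) and fibroblast and synovium (8.19) marker means were the highest. For Vcan (6.79) and Has1 (5.20), by contrast, it was the Ad-Zip8 array nearest the Ad-null mean. Its Slc39a8 value of 11.16 lay within the range of the other Ad-Zip8 arrays. Acan, Hapln1, Cd44 and Tnfaip6 passed in each of the 8 fits with 1 array left out. Their log2 changes then ran from -0.58 to -0.48 for Acan, -0.57 to -0.49 for Hapln1, 1.11 to 1.26 for Cd44 and 0.82 to 0.94 for Tnfaip6.

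**Figure D5:**
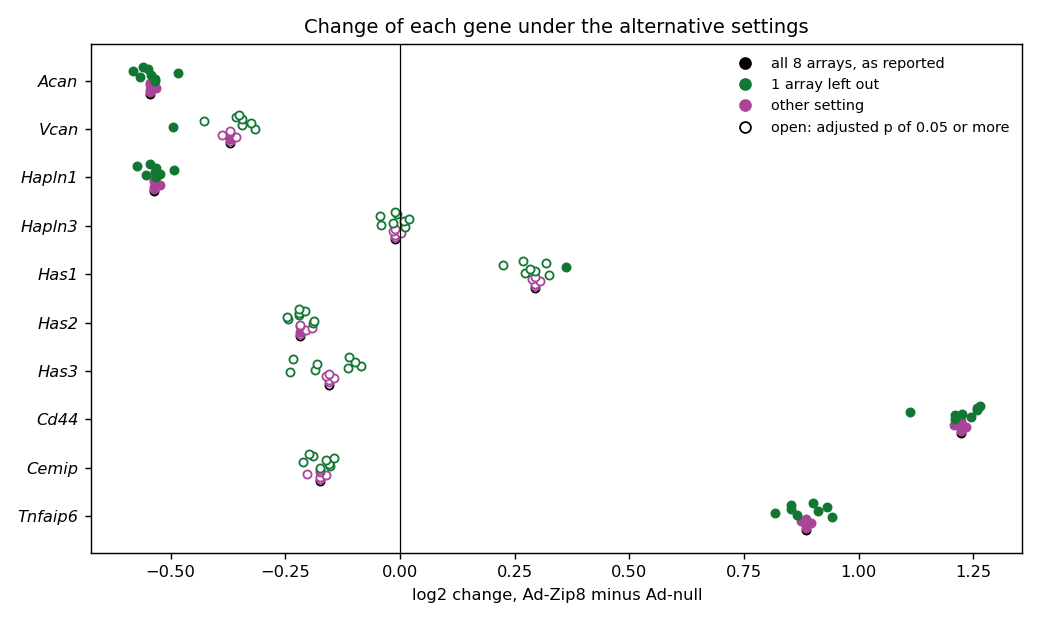
Each point is the log2 change of a gene, Ad-Zip8 minus Ad-null, under 1 setting: all arrays (black), 1 array left out (green) or another setting (purple), open where the adjusted p was 0.05 or more. Points of Acan, Hapln1, Cd44 and Tnfaip6 are all filled, Vcan, Has1 and Has2 have filled and open points, and Hapln3, Has3 and Cemip have open points alone.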

How the data were processed

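The authors deposited 1 log2 value per probe set and array (8 arrays, 41345 probe sets), for which the submitters' processing notes name RMA. That method corrects background, gives arrays a common distribution and summarises probes. The RMA version, genome build and filters applied are, in the sources used here, not given. Scanner files were not used, so no gene was called absent, and the number of arrays limits the precision. Probe sets with 1 symbol in the platform annotation were used (23521; 1814 with several symbols and 16010 unlisted were left out), keeping the one with the highest mean per gene, which gave 22180 genes.

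The Ad-Zip8 and Ad-null arrays were compared by lmFit and eBayes (limma 3.58.1, R 4.3.3), two-sided, without covariates or filter, adjusted by Benjamini-Hochberg over all genes at 0.05. Adjusted p-values of genes come from this fit unless a setting is named. The fit was tested on simulated data. Pair ratios used exact permutation tests.

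The genes and lists were chosen with earlier results of these data known. The text names the 10 genes, called genes of the pathway lists with up to 4 uncalled ones of smallest p, called markers, and the 3 closest genes of the 3 smallest adjusted p. Genes outside that rule (Hapln2, Hapln4, Lyve1, Itih1, Itih3, Itih5, Ambp, Cemip2, Msn, Col2a1, Sox9, Ptprc, Adgre1, Cx3cr1, Csf1r) were named after their values were seen.

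Alternatives were a replicate block, a variance trend, median centring, repeated quantile normalization, leaving out dim genes, averaging probe sets and leaving out each array. Deviations from group means correlated at 0.11 to 0.37 between same-numbered arrays and at -0.27 to 0.16 between others, and same-numbered arrays were therefore treated as pairs in the block fit. The labels do not say what a number shares.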

Additional observations from a re-analysis of the deposited data

Results flagged for a closer look

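Among 36 groups of 4 arrays screened (the 10 hyaluronan-aggregate genes and the 8 called pathway genes, in both groups), 5 held an array whose gap to its nearest neighbour, divided by the group's range, was above Dixon's 95% critical value for 4 values. In those 5 groups this share ran from 0.845 to 0.953. Chance gives about 1 in 20 such groups. Vcan was 6.62 in Ad-null replicate 2, with the other 3 Ad-null arrays between 7.07 and 7.15. Vcan was also apart in Ad-Zip8 replicate 1, at 6.79 against 6.54 to 6.58. Has2 was 8.92 in Ad-Zip8 replicate 3, with the others at 8.96, so this gap is small in size. Cd44 was 7.16 in Ad-Zip8 replicate 1, against 6.70 to 6.72 in the other Ad-Zip8 arrays. Adam17 was 8.01 in Ad-null replicate 3, against 8.20 to 8.23.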

How the results depend on the processing

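Acan, Hapln1 and Cd44 kept direction and call under all 14 alternatives, and Tnfaip6 under the 13 in which it was tested. With a replicate block the counts stayed at 2 higher and 2 lower among the 10 genes, and of the pathway genes Hexa and Ezr were called in addition; the block changed no other call among these genes. When dim genes were left out, 1 of the 10 was higher, because Tnfaip6 was not tested, and 4 were lower, with Vcan (adjusted p = 0.0392) and Has2 added. The variance trend also gave 4 lower, with Vcan at an adjusted p of 0.0488. Under both of these settings 4 pathway genes were lower, with Ezr and Rdx added to Gfpt1 and Gfpt2, and 8 were higher in place of 6, with Adam10 and Hexa added. Repeated quantile normalization also gave 8 higher, the same genes, and Adam10 was called without Ad-null replicate 2 (adjusted p = 0.0217). Leaving out 1 array gave 2 to 3 higher and 2 to 3 lower among the 10 genes. Over all genes it gave 708 to 923 lower, against 1136 with all arrays. Hapln3 changed sign under 4 settings, never past the threshold. Low signal limits Has1, Has3, Hapln3 and Tnfaip6, and signal near the top of the scale limits Acan.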
